A study of Mus musculus with 8 samples.

Results

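The genes described here are those of the cytosolic ribosomal proteins, the protein components of the 40S and 60S subunits that translate nuclear mRNAs. Members were chosen by gene symbol, as every row named Rpl, Rps, Rplp or Rpsa in the usual form, without pseudogene rows and without the S6 kinases. The rule found 85 of the 29442 genes in the deposited count table. Of these, 30 encode core 40S proteins, 43 encode core 60S proteins, 3 encode the 60S stalk and 9 are paralogs. Expression was measured by RNA-seq in the hippocampus of female C57BL/6 J mice, 6 to 8 weeks old, that received abdominal subcutaneous injections for 21 days. Of the 8 libraries, 4 came from mice given DHEA (dehydroepiandrosterone, an adrenal androgen precursor) at 30 mg/kg/day, with library numbers R3, R4, R7 and R11. The other 4 came from mice given the vehicle, sesame oil, with library numbers R5, R10, R16 and R9. The study took the tissue after behavioural tests and names it as ventral hippocampus, while the labels say hippocampus. The libraries held 31483772 to 38038361 counts, so counting error is small for all but the rarest members.

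A ribosome carries each core protein once, except for the stalk proteins, so the core genes are expressed at high and balanced levels in every cell. Their mRNAs start with a tract of pyrimidines at the 5′ end, the TOP motif, through which mTORC1 signalling controls their translation as a group. In the brain, ribosomal protein mRNAs are found in neuronal processes as well as in cell bodies, and glia and neurons both express them. Some members also act off the ribosome. The products of Rpl5 and Rpl11 bind Mdm2, the ligase that degrades p53, when ribosome assembly fails.

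RefSeq promoter sequences of mouse build GRCm38.p6 were found for 64 of the 85 members. The first match sought was a C followed by at least 7 bases that are each C or T, on the transcript strand within 20 bases of the start. It was present in 31 of the 64 members (48.4%) and in 14.5% of all 27025 genes. A gene is counted when any of its windows held the match. The letters CCGGAAG, which ETS factors bind, were sought on either strand of windows of 300 bases. They were present in 39.1% of the 64 members and in 9.93% of all genes. The letters CTCTTTC were in 26.6% of the members and in 9.28% of all genes, and AAGATGG, the YY1 letters, in 15.6% and 7.28%. TATAAA was present in 12.5% of the members and in 15.7% of all genes. The 4 sequences below belong to the 4 members whose DHEA and sesame oil libraries did not overlap, as described later. Each runs 5′ to 3′ on the transcript strand from 60 bases before the RefSeq start to 20 bases after it, and capitals mark a pyrimidine tract of the kind above or the letters CCGGAAG.
Rps27 (chr3:90213629-90213708, minus strand): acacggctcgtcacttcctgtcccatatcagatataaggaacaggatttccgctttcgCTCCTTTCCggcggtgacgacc
Rps27l (chr9:66946026-66946105, plus strand): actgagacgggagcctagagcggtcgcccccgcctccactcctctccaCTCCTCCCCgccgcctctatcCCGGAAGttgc
Rpl38 (chr11:114668520-114668599, plus strand): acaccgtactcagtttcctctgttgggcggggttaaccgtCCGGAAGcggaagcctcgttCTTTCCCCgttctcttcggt
Rps4x (chrX:102189372-102189451, minus strand): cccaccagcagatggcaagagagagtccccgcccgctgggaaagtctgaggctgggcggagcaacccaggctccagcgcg
The stretch of Rps4x holds neither set of letters, and that of Rps27l belongs to the upstream of 2 RefSeq starts. A match describes these windows and is not a mapped factor site or transcript start.

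Libraries R3 and R4, both labelled DHEA, stood apart from the other 6 before any comparison of the groups. For each of the 81 members averaging 10 or more counts, log2(CPM + 0.5) was set against its mean over the 8 libraries, where CPM are counts per 1000000 after TMM normalization. The median of these deviations was 0.34 in R4 and 0.14 in R3. It was -0.09 in R7 and -0.07 in R11, the other DHEA libraries. In the sesame oil libraries it was -0.13 in R5, -0.09 in R10, -0.09 in R16 and -0.02 in R9. The highest value of the 8 was in R4 for 79 of the 81 members and in R3 for the other 2. R7 and R11 lay within the sesame oil range for 53 and 47 members. In R4, 81 of 81 members were above all 4 sesame oil libraries, in R3 75, in R11 18 and in R7 7. Below all 4 were 0 members in R4, 1 in R3, 16 in R11 and 21 in R7. Shares of all genes above or below all 4 are not given here for single libraries. The counts of R7 and R11, which go both ways, are therefore not read as a result about the members.

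**Figure D1:**
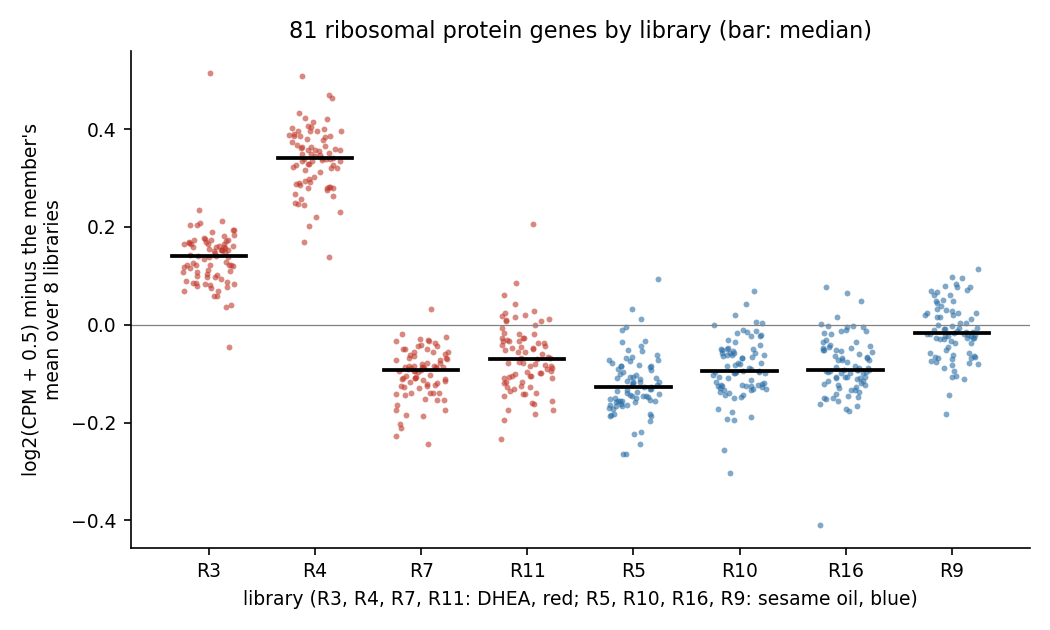
Each point is 1 of 81 ribosomal protein genes, plotted as log2(CPM + 0.5) minus the gene's mean over the 8 libraries, by library, with a bar at the median. The medians are 0.34 in R4 and 0.14 in R3, and between -0.13 and -0.02 in the other 6 libraries, DHEA libraries R7 and R11 included.

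The members took 1.40% of all counts in R4 and 1.23% in R3, against 1.08% in R7 and 1.09% in R11. In the sesame oil libraries they took 1.06% in R5, 1.08% in R10, 1.08% in R16 and 1.16% in R9. The mean share was 1.198 ± 0.151% (SD, n = 4) with DHEA and 1.095 ± 0.0428% (SD, n = 4) with sesame oil, and R7 and R11 fell inside the sesame oil range. Without R4 the mean share with DHEA was 1.13%.

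Members varied together. Over the 8 libraries the Pearson correlation between a pair of members had a median of 0.92 (quartiles 0.85 and 0.95, 3240 pairs), and 1 pair had a negative value. Among 3363 genes taken as every 5th gene averaging 10 or more counts, the median was 0.00. The points of each correlation share the libraries and their normalization. The members' median was 0.77 over the 7 libraries without R4, 0.92 over the 7 without R3 and 0.34 over the 6 without both. Over all 8 libraries, where the members' median was 0.92, the same measure was 0.75 for 78 nuclear genes of oxidative phosphorylation. It was 0.37 for 78 genes of the mitochondrial ribosome, also over all 8. The members least tied to the median of the others were Rpl21 (r = 0.60), Rpl7l1 (0.64), Rpl36al (0.65), Rpl6l (0.68), Rps27l (0.74) and Rpl23a (0.74). For 68 of the 81 members r was above 0.9.

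Levels between members were compared as FPKM, which divides counts by gene length and library total. The median of the 81 members was 144.4 FPKM, against 4.47 FPKM over all 16813 genes with that mean count, and 61 of the 81 lay above 100 FPKM. The highest mean levels belonged to the stalk gene Rplp1 (560.5 FPKM), to Rpl41, which encodes a very short basic 60S peptide (554.4 FPKM), and to Rps15, a protein of the 40S head (432 FPKM). Rps29 (389.4 FPKM), another protein of the 40S head, and Rpl23a (372.1 FPKM), which lies at the exit of the 60S peptide tunnel, followed. The lowest were Rps27l (3.26 FPKM), Rpl6l (14 FPKM), Rpl7l1 (14.3 FPKM), Rps20 (21.7 FPKM) and Rps15a (25.8 FPKM). The gene lengths used in the deposited values bear on this order. They were 5136 bases for Rps15a, 3446 for Rps20 and 2748 for Rps27l, against a median of 795 bases for the members, and a long annotated isoform lowers FPKM without lowering the counts. Rps15a had 127.5 ± 2.52 CPM (SD, n = 4) in sesame oil and Rpl35a 126.9 ± 4.76 CPM (SD, n = 4), while Rpl35a had 230.7 FPKM.

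DHEA was then compared with sesame oil in edgeR's quasi-likelihood fit of all 27612 genes with at least 1 count, in which all 85 members were tested. Most members had a higher mean in the DHEA libraries, by a small amount. In bulk tissue, more RNA per cell and more cells of a type that is rich in ribosomal protein mRNA cannot be told apart. Directions are those of the deposited treatment labels. The study's own table of changed genes has signs opposite to those obtained with these labels, and the ribosomal protein genes do not bear on which is right. For selected other genes, the study reports that qRT-PCR in further hippocampal samples matched its own RNA-seq result, which was not examined here. If the labels were exchanged, every higher and lower would be exchanged too. The median log2 fold change of the 85 members was 0.16 (1.12-fold), with quartiles of 0.12 and 0.21 and a median standard error of 0.09, while over all genes tested the median was 0.01. The fold change was positive for 78 members and negative for 7. At an unadjusted p under 0.05, 33 members (38.8%) were higher and 0 were lower, where 4.82% of all genes tested were higher and 4.49% lower. Among genes averaging 10 or more counts those shares were 6.85% and 6.26%.

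No member passed the adjusted threshold in edgeR. The smallest adjusted p of a member was 0.24 (edgeR, Benjamini-Hochberg over all genes tested), and 0 genes of the whole table (0.0%) had an adjusted p under 0.05. DESeq2 gave 1.21% of the genes with an adjusted p a value under 0.05, and 1 of the 81 members with one, Rps27l. The 2 groups did not overlap in CPM for 4 of the 81 members (4.94%), all higher with DHEA, against 3.63% of genes with that mean count that were higher without overlap and 3.53% that were lower. Without R4, 6 members (7.06%) were higher and 1 was lower at an unadjusted p under 0.05, beside 3.97% and 3.28% of all genes tested, and the median log2 fold change was 0.06. The 6 were Rps27l, Rps27, Rps4x, Rps16, Rpl39 and Rpl7, and the 1 that was lower was Rpl23a (log2 fold change -0.14). Leaving out R5 gave 17 higher members, beside 3.31% of all genes tested, and leaving out R16 gave 21, beside 3.52%. Leaving out R7 gave 64, beside 6.51%, and leaving out R11 gave 59, beside 5.74%. The series text speaks of 6 tissues while 8 libraries were deposited, and R9 and R11 have later accessions than the rest, but no label says that they were made apart. Without both, 61 members were higher, beside 5.09% of all genes tested, and the median was 0.23.

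**Figure D2:**
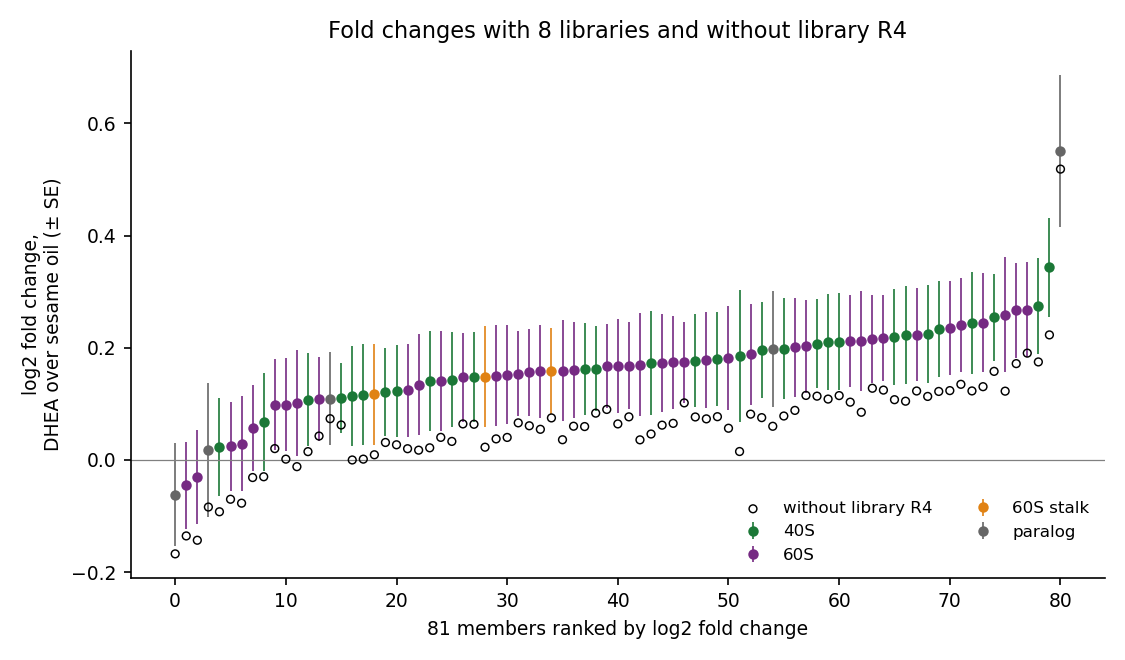
Filled points are the edgeR log2 fold changes (DHEA over sesame oil, bars: standard error) of the 81 members averaging 10 or more counts, ranked and coloured by subunit. Open circles are the same genes fitted without R4, where the median falls to 0.06 and Rps27l stays highest at 0.52.

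Among the 30 core 40S genes, 16 were higher at an unadjusted p under 0.05 and 14 did not pass, with a median log2 fold change of 0.18, beside the 4.82% of all genes tested. Without R4, 3 were higher and the median was 0.08. Rps27, a zinc finger protein of the 40S subunit, had 96.3, 122.8, 90.6 and 91.3 CPM in R3, R4, R7 and R11. In R5, R10, R16 and R9 it had 79, 71.7, 81.8 and 83.7 CPM, so every DHEA library was above every sesame oil library. Its log2 fold change was 0.34 (standard error 0.09, unadjusted p = 0.00104, adjusted p = 0.245 from edgeR), and the two-sided exact permutation p of 0.0286 is the smallest that 4 against 4 allow.

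Rps4x, the X-linked copy of a 40S protein, behaved likewise. It had 232.3, 266.2, 199.3 and 206.3 CPM in the DHEA libraries and 184.4, 189, 193.3 and 191.5 CPM in the sesame oil libraries, again without overlap. The lowest DHEA value, in R7, was close to the highest sesame oil value, in R16. Its log2 fold change was 0.25 (standard error 0.08, unadjusted p = 0.00399, adjusted p = 0.297 from edgeR).

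Rps16, a 40S protein whose tail reaches the decoding site, had 98.6, 112, 80.8 and 86.6 CPM with DHEA and 73.4, 78.5, 79.4 and 81.1 CPM with sesame oil. R7 lay just under R9 here, so the groups overlapped, and the log2 fold change was 0.27 (standard error 0.08, unadjusted p = 0.00463 from edgeR). Rps6, the 40S protein that S6 kinases phosphorylate, had 230.5, 261.4, 185 and 190.3 CPM with DHEA and 180.5, 190.7, 183.7 and 187.8 CPM with sesame oil. R3 and R4 were high and the other DHEA libraries lay inside the sesame oil range, and the unadjusted p was 0.0198 in edgeR with a log2 fold change of 0.22 (standard error 0.09). Without R4 its unadjusted p was 0.122.

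Rps27a, which is made as a fusion with ubiquitin, varied most between libraries after Rps27l. Its values were 113.7, 152.8, 90.5 and 105.9 CPM with DHEA and 89.3, 106.2, 97 and 114.6 CPM with sesame oil. The groups overlapped widely and its log2 fold change of 0.19 (standard error 0.12) had an unadjusted p of 0.131 in edgeR. Rps15a varied least of the 81, with 128.3 to 148.7 CPM with DHEA and 125.2 to 131.1 CPM with sesame oil, and did not pass (unadjusted p = 0.0956 in edgeR). The smallest fold change of a 40S gene was that of Rps7, with 165.6, 194.3, 141.9 and 137.8 CPM in the DHEA libraries and 151.3, 160.1, 156.1 and 162 CPM in the sesame oil libraries. R3 and R4 were above all sesame oil libraries, and R7 and R11 were below all of them.

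Among the 43 core 60S genes outside the stalk, 16 were higher at an unadjusted p under 0.05 and 27 did not pass, with a median log2 fold change of 0.17, beside the same 4.82%. Without R4, 2 were higher and 1 lower and the median was 0.06. Rpl38, a 60S protein known for its part in translating Hox mRNAs in the embryo, had 85.5, 99.5, 72.8 and 74.7 CPM in R3, R4, R7 and R11 and 71.8, 67.6, 71.6 and 70.4 CPM in R5, R10, R16 and R9. The groups did not overlap, by a margin of about 1 CPM between R7 and R5. Its log2 fold change was 0.24 (standard error 0.08, unadjusted p = 0.0106 from edgeR), and its unadjusted p without R4 was 0.0676.

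Rpl39, a small protein of the peptide exit tunnel, had 47.6, 52.3, 39.1 and 44.2 CPM with DHEA and 36.9, 36.3, 38.6 and 40.3 CPM with sesame oil, with R7 below R9. Its log2 fold change was 0.27 (standard error 0.08, unadjusted p = 0.00531 from edgeR). Rpl7, a 60S protein that contacts the 5S RNA, had a log2 fold change of 0.27 (standard error 0.08, unadjusted p = 0.00553 from edgeR) and 175.8 to 179 CPM in R5, R10 and R16 but 195.7 CPM in R9. Rpl5 and Rpl11, which travel with the 5S RNA, had log2 fold changes of 0.22 and 0.22 (unadjusted p = 0.0115 and 0.0148 from edgeR). Without R4 neither passed, with unadjusted p of 0.0662 and 0.0906. Rpl35a (0.24) and Rpl14 (0.24) were the other members among the 10 with the smallest p.

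Rpl21 and Rpl23a were the core members with negative fold changes. Rpl21 had 57.8, 68.7, 56.3 and 52.9 CPM with DHEA and 59.2, 58.4, 63 and 62.6 CPM with sesame oil, so that R4 was highest here too while the other DHEA libraries were below all sesame oil libraries. Its log2 fold change was -0.05 (standard error 0.08, unadjusted p = 0.566 from edgeR). Rpl23a had 212.8, 249.3, 179.2 and 183.8 CPM with DHEA and 209.4, 207.5, 207 and 219.2 CPM with sesame oil, with R7 and R11 below all 4. Ribosomal protein genes have many near-identical processed pseudogenes, and how the counting treated reads that match several places is not given in the sources used here. Values of single members, these 2 included, are uncertain to that extent.

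**Figure D3:**
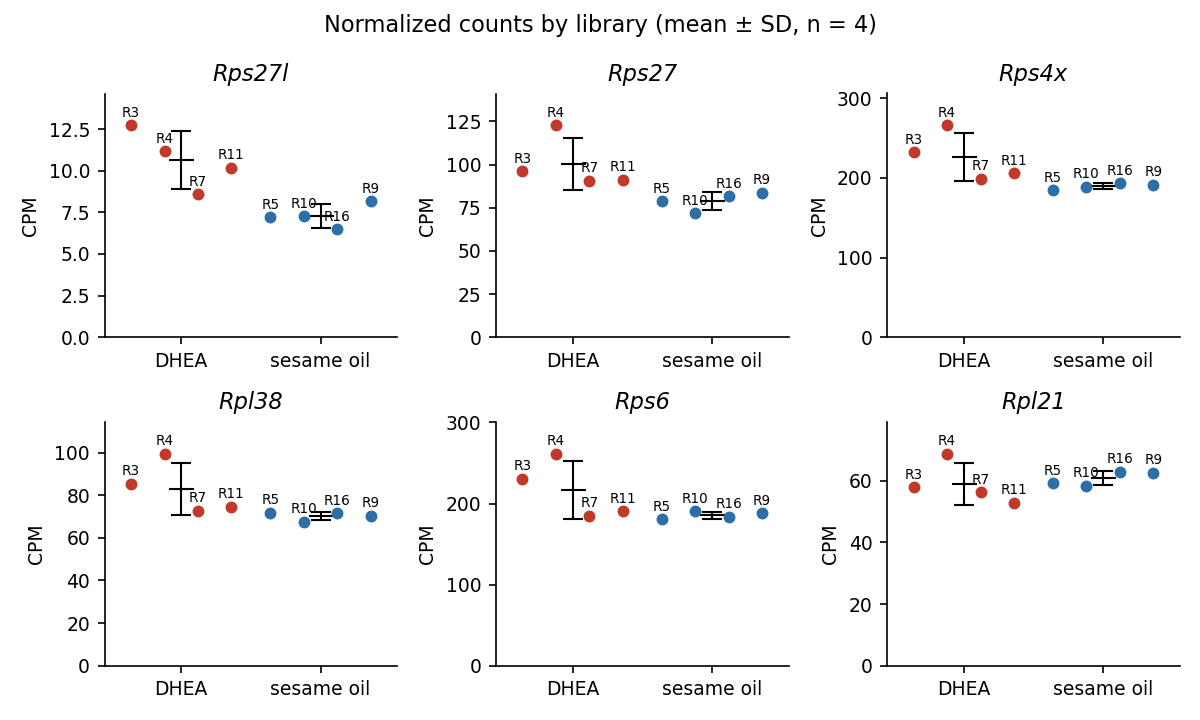
CPM of 6 members in each library (points, with library numbers) and the mean with SD of each group (n = 4), on axes that start at 0. Rps27l, Rps27, Rps4x and Rpl38 do not overlap between groups, Rps6 overlaps with R3 and R4 high, and Rpl21 has 3 DHEA libraries below the sesame oil libraries.

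The stalk genes Rplp0, Rplp1 and Rplp2 encode the arm of the 60S subunit that recruits elongation factors, and 0 of the 3 passed in edgeR. Rplp0 was 184.5 ± 22.4 CPM (SD, n = 4) with DHEA and 165.2 ± 8.7 CPM (SD, n = 4) with sesame oil. Rplp1 was 276.2 ± 46.1 and 249.2 ± 16.1 CPM, and Rplp2 was 68.7 ± 10.3 and 63.4 ± 4.63 CPM in the same order (SD, n = 4). Their log2 fold changes were 0.16, 0.15 and 0.12, close to the members' median. Rpl10, which joins late and completes the 60S subunit, and Rpl22 passed (log2 fold changes 0.17 and 0.17, unadjusted p = 0.0392 and 0.045 from edgeR), but not without R4 (0.09 and 0.08, unadjusted p = 0.201 and 0.268), and each kept such a p in 3 of the 8 fits with 1 library left out. The most counted 60S gene after Rpl4, Rpl3 of the peptidyl transferase region, did not (0.12, unadjusted p = 0.15).

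Of the 9 paralogs, 1 was higher and 8 did not pass in edgeR, where 4.82% of all genes tested were higher. Rps27l, the paralog of Rps27 that p53 is known to induce, had the largest fold change of the 81 members. It had 12.7, 11.2, 8.57 and 10.2 CPM in R3, R4, R7 and R11 and 7.21, 7.26, 6.47 and 8.18 CPM in R5, R10, R16 and R9, without overlap. The highest value was in R3, not R4, and R11 was clear of the sesame oil range, unlike for most members. The log2 fold change was 0.55 (standard error 0.14, unadjusted p = 7.74e-04, adjusted p = 0.24 from edgeR, adjusted p = 0.0308 from DESeq2, exact permutation p = 0.0286), and 0.52 without R4. It had an unadjusted p under 0.05 with each of the 8 libraries left out in turn. Rps27, Rps4x, Rps16, Rpl39 and Rpl7 also kept such a p each time, with log2 fold changes between 0.22 and 0.39 for Rps27. Of the list of 10 p53 and ribosome stress genes, 0 were higher and 0 were lower at an unadjusted p under 0.05. Of these 10, 1 was higher without R3, R4, R5 or R16 and 1 was lower without R7 or R11.

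The other paralogs did not pass. Rpl36al was 43.8 ± 6.9 CPM (SD, n = 4) with DHEA and 45.7 ± 1.52 CPM (SD, n = 4) with sesame oil, while its counterpart Rpl36a was 65.4 ± 9.53 and 57.8 ± 2.16 CPM. Rpl22l1 was 29.3 ± 5.23 and 25.5 ± 0.998 CPM, and Rpl7l1 was 38.8 ± 3.95 and 35.9 ± 1.79 CPM. Rpl6l was 13.3 ± 1.95 and 13.2 ± 1.22 CPM. None of these 4 passed in edgeR (unadjusted p = 0.505 for Rpl36al, 0.073 for Rpl22l1, 0.2 for Rpl7l1 and 0.886 for Rpl6l). The striated muscle paralog Rpl3l had 3, 9, 10 and 3 counts with DHEA and 5, 10, 13 and 10 with sesame oil. The germ line paralogs Rpl10l and Rpl39l had 0 to 3 and 1 to 7 counts per library, and Rpl32l had 0 to 8, levels at which no difference was detectable at this depth.

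Some ribosomal proteins that the name rule leaves out were examined beside the members. Fau, which carries the 40S protein S30 fused to a ubiquitin-like protein, and Rps3a1 had log2 fold changes of 0.12 and 0.14 (unadjusted p = 0.163 and 0.134 from edgeR), and neither passed. Rps3a1 had 307.7, 358.3, 253.1 and 257.1 CPM with DHEA and 256.1, 274.4, 259.4 and 277.8 CPM with sesame oil, again with R4 and R3 high. Rack1, a signalling scaffold on the 40S head, had a log2 fold change of 0.09 (unadjusted p = 0.225 from edgeR).

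A further description used the balance of the subunits within a library, which does not depend on how high the whole set is. Counts on Rpl and Rplp genes were divided by counts on Rps genes. The ratio was 1.636 in R3, 1.625 in R4, 1.636 in R7 and 1.643 in R11. It was 1.67 in R5, 1.671 in R10, 1.66 in R16 and 1.671 in R9, so all DHEA libraries, R7 and R11 included, were below all sesame oil libraries. It remained without overlap when Rpl3 and Rpl4, the most counted members, were left out, at 1.444, 1.435, 1.443 and 1.445 with DHEA and 1.465, 1.466, 1.458 and 1.461 with sesame oil. The median log2 deviation of 60S minus 40S genes, which weighs each gene alike, did overlap, from -0.01 to 0.00 with DHEA and from -0.01 to 0.03 with sesame oil. The ratio gives most weight to abundant genes, and neither measure was tested.

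**Figure D4:**
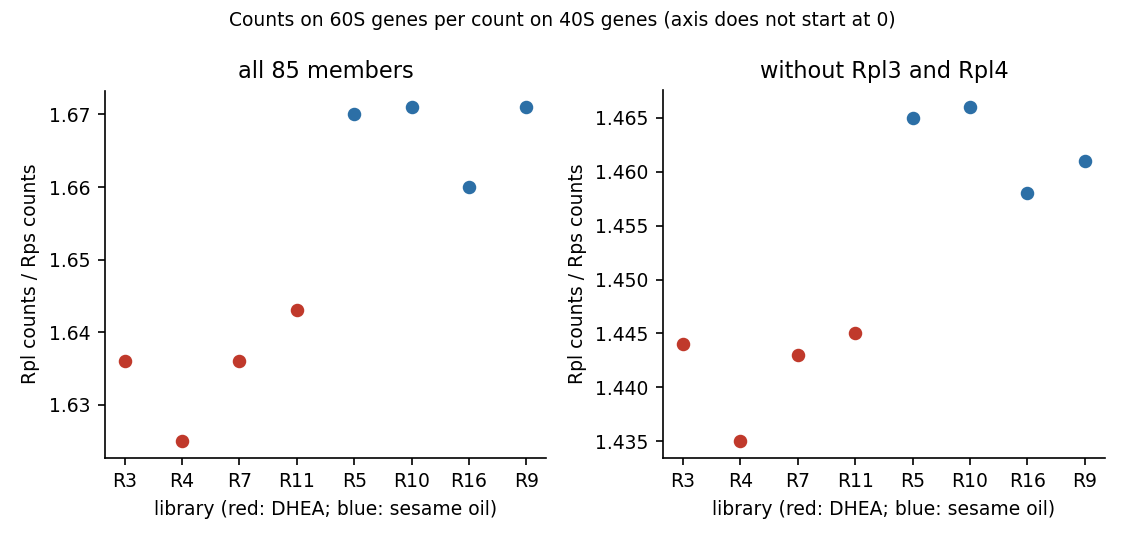
Counts on 60S genes divided by counts on 40S genes in each library, for all 85 members and without Rpl3 and Rpl4 (the axes do not start at 0). The 4 DHEA libraries lie between 1.625 and 1.643 and the 4 sesame oil libraries between 1.66 and 1.671 in the first panel.

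Single genes were placed in the same way against the median deviation of the 81 members in their library. Relative to it, 9 members were higher in every DHEA library than in every sesame oil library, and 9 were lower, given here as a description with no test. Of all 16813 genes averaging 10 or more counts, set against the same member median, 0.303% were higher without overlap and 5.92% were lower. That median is itself raised in R3 and R4, which lowers other genes there. The 9 that were higher were Rps27l, Rps27, Rps16, Rpl39, Rps4x, Rpl14, Rpl35a, Rps3 and Rpl5. Rps27l was 0.35 higher and Rps27 0.17 higher on the log2 scale. The 9 that were lower were Rpl36al (by -0.24), Rpl21 (-0.21), Rpl23a (-0.21), Rps7 (-0.15), Rpl12 (-0.15), Rpl28 (-0.14), Rpl4 (-0.11), Rpl15 (-0.07) and Rpl3 (-0.05). Rpl4 lines the exit tunnel and Rpl12 sits at the base of the stalk. Rpl23a had relative values of -0.10, -0.08, -0.12 and -0.11 in R3, R4, R7 and R11 and of 0.14, 0.09, 0.09 and 0.09 in R5, R10, R16 and R9, a gap wider than the spread within either group. The lower set held 8 Rpl genes and 1 Rps gene, and the higher set 5 Rps genes, Rps27l included, and 4 Rpl genes, where the 81 members comprise 50 and 31.

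Genes that act with ribosomal proteins did not all follow them. Counts with all libraries in this and the following lists stand beside 4.82% higher and 4.49% lower among all genes tested. Of 28 other translation genes whose mRNAs carry the TOP motif, 5 were higher and 0 lower at an unadjusted p under 0.05 in edgeR, with a median log2 fold change of 0.07. Without R4, 2 were higher and the median was 0.00, without R7 8 were higher (0.11), without R11 7 (0.10) and without R3 5, with 1 lower (0.04). The 5 were Pabpc1, which binds poly(A) tails, Eif2s3x and Eif3m of the initiation factors, Btf3, a subunit of the complex that meets nascent chains at the tunnel exit, and Tpt1. Pabpc1 had 183.2, 185.3, 162 and 168.3 CPM with DHEA and 150, 155.1, 155.8 and 152 CPM with sesame oil, without overlap and with R7 and R11 also above the sesame oil range. Its log2 fold change was 0.19 (standard error 0.06, unadjusted p = 0.00585 from edgeR).

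Among 46 ribosome assembly and nucleolar factors more were lower than higher. In edgeR 9 were lower and 1 was higher at an unadjusted p under 0.05, beside 4.49% and 4.82% of all genes tested. The median log2 fold change was -0.05. With 1 library left out, between 7 (without R5) and 11 (without R7) were lower, and 8 without R4. The median then lay between -0.025 (without R5) and -0.072 (without R9). The number higher was 0 without R3, R4, R5, R10, R16 or R9, 1 without R11 and 2 without R7, and 0 with DESeq2. Ebna1bp2, a 60S assembly factor, had 31.5, 34, 32.5 and 32.4 CPM with DHEA and 42.3, 35.8, 41 and 36.6 CPM with sesame oil, without overlap (log2 fold change -0.26, standard error 0.08, unadjusted p = 0.0037 from edgeR). Mdn1, a very large ATPase that releases assembly factors from the 60S particle, had 65 and 59.4 CPM in R3 and R4, 100.6 and 90.3 CPM in R7 and R11, and 99.7 to 105.5 CPM in sesame oil. Heatr1 and Nat10 of the small subunit processome had log2 fold changes of -0.31 and -0.31. With all libraries, Nhp2, a protein of H/ACA particles, was the 1 that was higher (0.21, unadjusted p = 0.0462 from edgeR). Of 12 genes of RNA polymerase I and rRNA transcription, Polr1d, a subunit shared with RNA polymerase III, was higher (log2 fold change 0.25). Polr1b, the second largest subunit, and Taf1a, of the factor that loads the enzyme on rDNA, were lower (-0.36 and -0.41). Without R4, R9 or R11 0 of the 12 were higher, and 2 to 3 were lower with any library left out.

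In the list of 31 genes of mTORC1 signalling and S6 kinases, 4 were higher and 3 were lower, with edgeR at the same threshold. Of all genes tested, 4.82% were higher and 4.49% lower, and both counts of the list changed with the library left out. The number higher was 1 without R3, R4 or R5, 2 without R16 and 5 without R7 or R11, and the number lower was 1 without R3, R5 or R9. With all libraries, Ddit4, an inhibitor of mTORC1, Rheb, its activator, and Rragd and Lamtor1, which place it on the lysosome, were higher. Tsc2, which inactivates Rheb, Rps6kb2, an S6 kinase, and Depdc5, an inhibitor acting through the Rag GTPases, were lower. Tsc2 had 97, 94, 110.9 and 105.5 CPM with DHEA and 118.9, 119.4, 113.4 and 115.2 CPM with sesame oil, without overlap (log2 fold change -0.20, standard error 0.06, unadjusted p = 0.00683 from edgeR). In the Myc network 1 of 12 genes was higher, Mxd4, a repressor that competes with Myc for Max, and 0 were higher without R4, R5, R9, R11 or R16. The number lower was 0 with all libraries, 1 without R4 or R7 and 2 without R11.

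Genes of mitochondrial energy production shared the pattern of libraries in part. Of 80 nuclear genes of oxidative phosphorylation, 16 were higher and 1 lower in edgeR (median log2 fold change 0.12), with median deviations of 0.15 in R3 and 0.20 in R4. With 1 library left out, the number higher lay between 2 (without R4, median 0.06) and 39 (without R7, median 0.17), and it was 27 without R11, 10 without R16, 9 without R5, 7 without R9, 5 without R10 and 4 without R3. Of the 13 protein genes of the mitochondrial genome, 6 were higher and 0 lower (median 0.24; without R4 5 higher, median 0.08), and they took 7.87% of counts in R3, 9.34% in R4, 7.59% in R7 and 7.29% in R11 against 6.37 to 7.23% in sesame oil. Of 78 genes of the mitochondrial ribosome, 4 were higher and 1 lower (median 0.05), a share close to that of all genes tested. Without R4 0 were higher and 0 lower and the median was -0.01, while without R11 10 were higher.

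**Figure D5:**
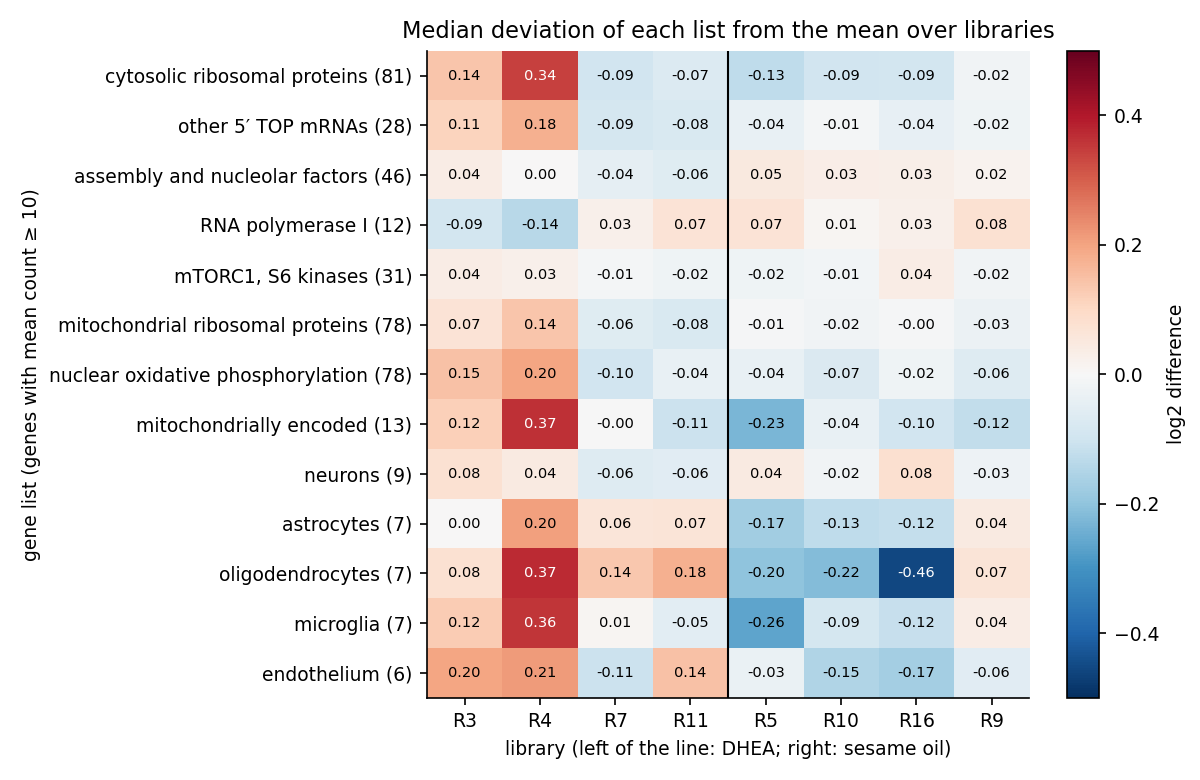
Median log2 deviation of each gene list from its mean over the 8 libraries (genes averaging 10 or more counts, number in parentheses), by library, with DHEA left of the line. Cytosolic ribosomal protein genes reach 0.34 in R4 and 0.14 in R3, the other 5′ TOP mRNAs 0.18 and 0.11, and assembly factors 0.00 and 0.04.

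Other properties of the libraries moved with the members. Members are short, with a median length of 795 bases against 3763 for all genes averaging 10 or more counts. Over these 16813 genes the Spearman correlation of a gene's deviation with its length was -0.25 in R4 and -0.21 in R3, and 0.05 to 0.20 in the other 6 libraries. Of 475 genes of at most 800 bases that are not members, 41 were higher and 6 lower in edgeR (median log2 fold change 0.10), with median deviations of 0.16 in R4 and 0.10 in R3, and without R4 23 were higher and 8 lower. After each library's trend with length was removed, 17 members were higher and 2 lower at an unadjusted p under 0.05, beside 4.68% and 4.98% of all genes tested, and the median was 0.08. Rps27l (0.53), Rps27 (0.19), Rps4x (0.20), Rps16 (0.17), Rpl39 (0.14), Rpl7 (0.19) and Rpl38 (0.13) kept an unadjusted p under 0.05 in that fit. For the assembly factors and the RNA polymerase I and mTORC1 genes named above, values from that fit are not given here. The part of gene length in their differences was not tested. The correlation with GC content was -0.16 in R4, -0.13 in R3, -0.07 in R7, -0.01 in R11 and 0.07 to 0.18 in sesame oil. After each library's trend with GC content was removed, 36 members were higher, beside 3.92% of all genes tested, and the median was 0.17.

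Markers of the cell types in the tissue were read as whole lists. Of 7 oligodendrocyte markers, all 7 were higher with DHEA in edgeR at an unadjusted p under 0.05 (median log2 fold change 0.39). All 7 were without R4 (0.32), and 6 were without R16 (0.31). Their summed level was 6349, 8026, 6275 and 6521 CPM in R3, R4, R7 and R11 and 5086, 5057, 4285 and 6105 CPM in R5, R10, R16 and R9. Unlike for the ribosomal protein genes, R7 and R11 were also above the sesame oil libraries in this sum. Taken singly, 1 of the 7 markers was higher without overlap, beside 3.63% of genes averaging 10 or more counts. Of 7 astrocyte markers 4 were higher, of 7 microglial markers 3, of 6 endothelial markers 3 and of 4 markers of oligodendrocyte precursors 1. Without R4 the numbers were 2, 2, 3 and 1. The astrocyte number was also 2 without R5, R10 or R16, and it was 5 without R3. The microglial number was 2 without R5 and 4 without R9 or R11. The endothelial number was 4 without R7 or R11, and the precursor number was 2 without R5 or R11. The part of these cell types in the result for the ribosomal protein genes was not tested. Microglial markers summed to 264.7, 311.9, 247 and 232.1 CPM with DHEA and 211.1, 229.2, 228 and 248.9 CPM with sesame oil.

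Of 9 neuronal markers 0 were higher and Rbfox3, a nuclear protein of neurons, was lower (log2 fold change -0.16, unadjusted p = 0.00781 from edgeR). The 9 summed to 9859 to 10560 CPM with DHEA and 10050 to 10620 CPM with sesame oil. Choroid plexus markers summed to 86.8 CPM in R4 and 488.3 CPM in R9, against 1972 to 4346 CPM in the other 6 libraries, with Ttr the most abundant. R4, where the members were highest, thus had the lowest summed choroid plexus markers, and 0 of these 6 markers passed in edgeR (median log2 fold change 0.44). Without R4 all 6 were higher with DHEA (median 0.78). With any other library left out 0 of 6 passed, and the median was 0.10 without R3, 0.16 without R9 and 0.20 without R11. Red blood cell markers summed to 45.7 to 159.3 CPM, and 0 of 5 passed. All 8 hippocampal markers were detected in all libraries, among them Prox1 of the dentate gyrus at 112.2 to 145.4 CPM, and 1 of the 8, Spink8, was higher. Without R3, R4, R5, R11 or R16 0 of the 8 were higher. The number lower was 0 with all libraries, 2 without R3 and 1 without R5 or R11.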

How the data were processed

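Hippocampal RNA of 8 libraries, 4 labelled DHEA and 4 labelled Sesame Oil, was sequenced as paired-end reads from polyA libraries. Unnormalized gene counts of 29442 genes and FPKM values were deposited by the authors. The submitters' processing notes name fastp, HISAT2, HTSeq and GRCm39, and give no versions. The deposited FPKM equal the count divided by the library total and 1 length per gene (25234 of 25234 genes within 0.1%), so they were used for levels and lengths only. No coordinates of the counted genes were used, and the promoters come from GRCm38.p6.

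Counts were fitted with edgeR 4.0.16 in R 4.3.3 (TMM, quasi-likelihood test, genes with at least 1 count, no covariate), and p-values were adjusted by the Benjamini-Hochberg method over all 27612 genes. CPM are TMM-normalized counts per 1000000. For single genes, mean CPM were also compared over the 70 allocations of 4 against 4 libraries (exact permutation test, two-sided). Standard errors were taken as |log2 fold change|/√F. Scripts were tested on simulated data. The libraries of a group were compared, and none agreed within sampling noise. The study kept several mice to a cage, used littermates as controls and gives n = 4 female mice per group for RNA-seq. No source used here ties a library to a cage, litter, batch or pair, and p-values measure the spread between these libraries.

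Members and gene lists were chosen with earlier results of these data known. Genes named in the text were members with the smallest unadjusted p (at most 10), the highest and lowest by FPKM and by variation, paralogs with their counterparts, the stalk, Rpl5, Rpl11, Rps27a and Rps6, ribosomal protein genes outside the name rule, and up to 4 genes of each list. Rps7, Rpl4, Rpl12, Rpl15, Rpl28, Rps3, Rpl32l, Rpl6l and further list genes were named after their values were seen. Rpl6l and Rpl32l were added to the paralogs at that point. Some genes set by this rule are not reported here. Alternatives were RLE, upper-quartile and total-count normalization, DESeq2 1.42.0, filters of at least 10 counts and filterByExpr, robust moderation, each library left out, R9 and R11 (with later accessions) left out, mitochondrially encoded genes left out, members left out of TMM, and removal of each library's lowess trend (span 0.3) with gene length or GC content (GENCODE vM21, 15594 of 16813 genes). Correlations without R3 or without R3 and R4, and the other lists with each library left out, were added after seeing the data.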

Additional observations from a re-analysis of the deposited data

Results flagged for a closer look

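In 80 groups of 4 libraries, Dixon's ratio of the gap to the range was compared with its 95% critical value, and 3 groups exceeded it, where chance gives about 4. They were Rpl7 in sesame oil (0.842, R9 high), Rpl36a in sesame oil (0.898, R5 low) and Rpl10l in DHEA (0.96), which had 0 to 1 counts per library.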

How the results depend on the processing

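The median log2 fold change of the members stayed positive under every alternative run, from 0.06 without R4 to 0.23 without R9 and R11, with 0.08 after the length trend was removed and 0.13 with total counts alone. The number of members higher at an unadjusted p under 0.05 was 33 with all libraries and depended on the setting. It was 20 with filterByExpr, where 996 of the 16861 genes tested were higher. It was 17 after the length trend was removed and 61 without R9 and R11. With 1 library left out it lay between 6 (without R4) and 64 (without R7). The shares of all genes tested in these other settings are given above. The number lower was 2 after the length trend was removed and 0 to 1 with 1 library left out. Adjusted p under 0.05 was reached by 1 member with DESeq2 and by 0 to 1 with 1 library left out. No other setting moved these counts by over 1.5 times.

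For the 38 genes named by rule, 667 of 756 repeated values kept direction and side of the threshold, 45 gained and 30 lost the unadjusted threshold, and 14 changed sign, in 7 genes and always with an unadjusted p above 0.05. With 1 library left out, the log2 fold change ranged from -0.1433 to 0.0305 for Rpl23a, -0.1356 to 0.0031 for Rpl21, -0.1676 to 0.0021 for Rpl36al, -0.0841 to 0.0929 for Rpl6l and -1.1103 to 0.0296 for Rpl10l. Without R9 and R11 it was 0.0396 for Rpl23a, 0.0175 for Rpl21 and 0.0055 for Rpl36al. The length trend gave -0.0165 for Rps29, -0.0132 for Rplp2 and -0.0595 for Rpl6l, and total counts alone gave -0.0128 for Rpl6l. The cause was not tested. Arms of 3 libraries were fitted with the pooled spread. Members averaging under 10 counts carry large errors.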
